A study of Mus musculus with 30 samples.

Results

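The subunits of the oxidative phosphorylation system were followed in RNA sequencing counts of mouse liver. Members were the genes of the time-course table whose symbols name a subunit of complexes I to V (Nduf, Sdh, Uqcr, Cox4 to Cox8 and Atp5 symbols, and the mt-Nd, mt-Co, mt-Cytb and mt-Atp genes) and whose counts over 18 libraries summed to at least 200. Of 101 matching symbols among 54429 genes, 89 were members, 76 encoded in the nucleus and 13 in mitochondrial DNA, and all 89 were found by Ensembl ID in the second table of 55471 genes. The nuclear members comprised 36 genes of complex I, 4 of complex II, 8 of complex III, 11 of complex IV and 17 of complex V, and the mitochondrial ones 7, 0, 1, 3 and 2. The 2 genomes are reported apart.

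Complexes I to IV pass electrons from NADH and succinate to oxygen, complexes I, III and IV pump protons as they do so, and complex V, the ATP synthase, uses the proton gradient to make ATP. Mitochondrial DNA encodes a few core subunits of complexes I, III, IV and V, while the other subunits, and all of complex II, are encoded in the nucleus, translated in the cytosol and imported. The liver runs this machinery on fatty acids and amino acids and is rich in mitochondria.

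The time course held livers of male C57BL/6J mice of 2, 6 and 12 months, with 1 library at each of ZT1, 5, 9, 13, 17 and 21, where zeitgeber time (ZT) counts hours from lights on in a cycle of 12 h light and 12 h dark with chow at all times. The second cohort held 12 libraries of male liver-specific Egr-1 knockouts (KO, with floxed Egr-1 deleted by Cre under the albumin promoter, which acts in hepatocytes) and male littermates without deletion (WT). Their line was made in strain 129 and backcrossed to C57BL/6J over at least 6 generations. There was 1 library per genotype at each of 2, 6 and 12 months and each of 2 collections labelled H and L. The study collected H and L at ZT13 and ZT17 at 2 months, ZT9 and ZT21 at 6 months, and ZT5 and ZT21 at 12 months, so age and time of day cannot be told apart there. The study's legends give numbers of animals per group, but not whether a library came from 1 mouse or a pool, and with 1 library per age and time the 6 times stand in for replicates, so the p-values measure the spread between these libraries.

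Library totals ran from 13375377 to 16557378 counts in the time course and from 13747706 to 21748956 in the genotype cohort. Hepatocyte markers, albumin among them, summed to at least 47783 CPM in every library, and the muscle markers were at or near 0 (Ckm at 0 in all 30, none above 0.295 CPM). In the genotype table the counts of each gene summed over the 6 L libraries stood in nearly 1 ratio to the sum over the 6 H libraries. The median ratio was 0.769, with the 5th to 95th percentiles at 0.763 to 0.775 over 4449 well counted genes, and 95.2% of the genes lay within 1 counting SD of it, against 16.5% for KO over WT. For 88 of the 89 members the mean normalized level in L was within 0.02 of that in H as a ratio. H and L are therefore not compared, and p-values from this table treat as separate libraries whose levels are tied. The cause was not tested, and no source used here names a step that would tie them.

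Sequence bears on what a mitochondrial count means. Of the 13 mitochondrial genes, 4 (mt-Atp6, mt-Co2, mt-Co3 and mt-Nd4l) have copies of 100% identity on chromosome 1 of GRCm38 (GENCODE M21), as does a stretch of 876 bases of mt-Nd4, and the copy of mt-Nd3 differs at 1 base. These copies lie on the minus strand between 24611535 and 24615565. Copies were sought among annotated transcripts only, not in the whole genome. Genes without a listed copy, such as mt-Atp8, may therefore have one that was missed. Of the counts of a gene and its copies together, the copies took 37.5% for mt-Co2, 34.8% for mt-Atp6, 25.2% for mt-Nd3, 22.9% for mt-Co3 and 22.4% for mt-Nd4l, but 1.18% for mt-Nd4 and 0.524% for mt-Co1. The levels of the first 5 are therefore uncertain, since reads of the gene and the copy cannot be told apart, except in mt-Nd3 where they cover the differing base. Reads within the 876 bases of mt-Nd4 cannot be told apart either, so its low share on the copy does not make its level certain. A stretch of mt-Co1 beside its partial copy Gm29216 is shown, with the differing bases in capitals, to show the kind of difference that does separate a read, and then the bases shared by mt-Atp8 and mt-Atp6, which overlap on the same strand at chrM:7927-7969.
mt-Co1, chrM:6381-6421, plus strand: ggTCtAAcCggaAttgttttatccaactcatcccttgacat
Gm29216, the copy: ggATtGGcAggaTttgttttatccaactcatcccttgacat
mt-Atp8 and mt-Atp6, shared 43 bases: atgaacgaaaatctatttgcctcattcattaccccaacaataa
The ends of mt-Nd5 and mt-Nd6, on opposite strands, share 14 bases, and the strand setting of the counting is not stated.

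Per length, mitochondrial genes led the members. Levels in FPKM (fragments per exon kilobase and library size, mean of the time course) were 20663 for mt-Co1, the catalytic subunit of complex IV, 14001 for mt-Cytb of complex III and 10297 for mt-Nd1 of complex I. The order then ran down through mt-Nd2, mt-Nd4, mt-Nd5, mt-Nd6, mt-Atp6, mt-Co3, mt-Co2 and mt-Nd4l to 208 for mt-Nd3 and 20.4 for mt-Atp8. From mt-Atp6 to mt-Nd3 these are the genes made uncertain by their copies, and so is their place in the order. The libraries were poly(A) selected, and how completely each mitochondrial RNA was captured was not measured. The nuclear members were highest at 576 for Ndufa4, named for complex I and now usually placed with complex IV, 508 for Cox6a1 and 416 for Ndufb11, and lowest at 5.53 for Ndufb2, 3.13 for Atp5s and 1.49 for Cox7a1. Median levels of the nuclear members by complex were 76.2 for I, 116 for II, 231 for III, 274 for IV and 122 for V.

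The liver forms dominated the isoform pairs. Cox6a2, Cox8b and Cox6b2, the muscle, heart and testis forms, had 21, 30 and 50 counts in all and fell below the limit, as did the pseudogenes Atp5l2-ps (197), Atp5k-ps2 (89) and Atp5l-ps1 (82), and 6 other matching symbols had 0. Just inside it were Cox7a1 (214 counts), Cox6c2 (493, a processed pseudogene) and mt-Atp8 (1118). The common forms Cox6a1, Cox7a2, Cox8a and Cox6b1 had median levels at 2 months of 382, 364, 241 and 217 CPM (each library's counts brought to one common total, scaled by the trimmed mean of M-values), and none passed the test between any ages or genotypes.

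The 13 mitochondrial genes together took 5.35 to 12.1% of a library in the time course. The share was lowest at ZT5 of 6 months (5.35%, 95% exact binomial interval 5.34 to 5.36) and highest at ZT9 of 12 months (12.1%), and its median was 8.36% at 2 months against 8.08% and 7.45% at the later ages, within the spread of the groups. The intervals cover counting error only. At 2 and 12 months the highest share of the 6 times was at ZT9, and the age groups overlapped throughout. The 76 nuclear genes took much less, with medians of 1.76%, 1.48% and 1.82%. The nuclear share was lower at 6 than at 2 months at 6 of 6 times and higher at 12 than at 6 months at 6 of 6. As a raw share it was lowest at ZT9 at every age, but with TMM scaling the ZT9 value at 12 months was 1.81%, above the 1.57% of ZT13.

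**Figure D1:**
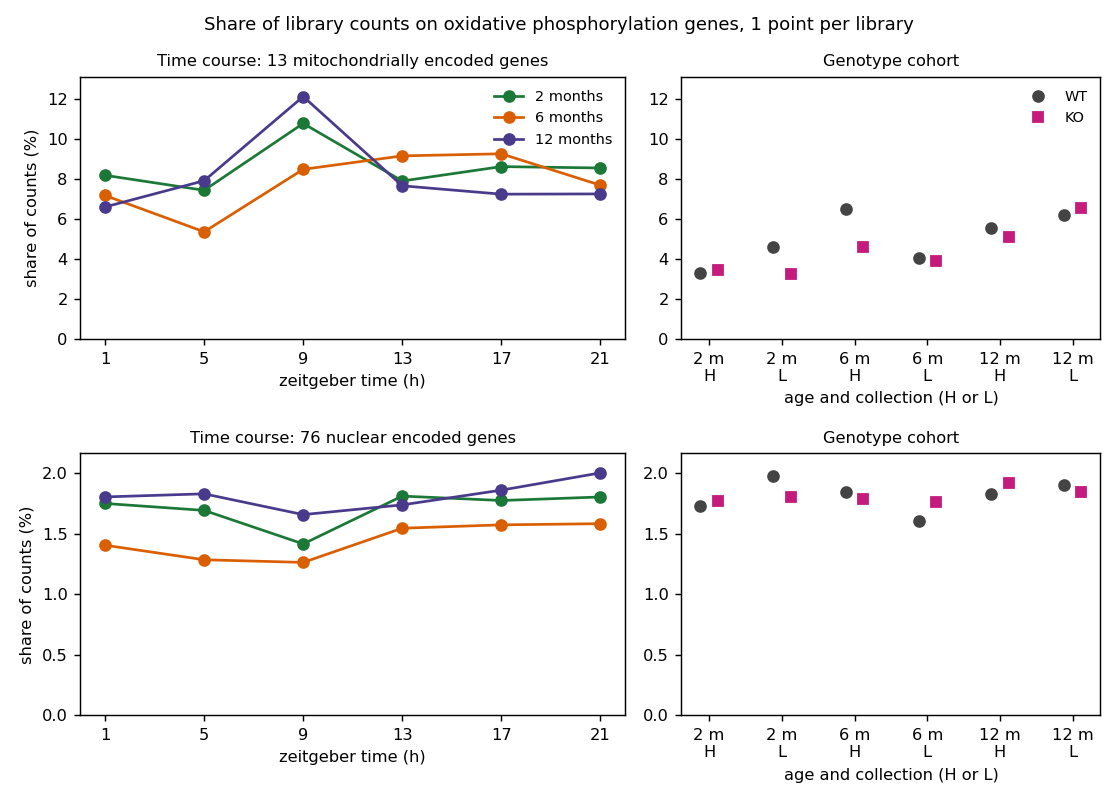
Share of library counts (%) on the 13 mitochondrial (top) and 76 nuclear (bottom) members, against zeitgeber time for the 3 ages of the time course (left) and by age, collection and genotype in the second cohort (right), 1 point per library, axes from 0. The 6-month line lies below the other ages at every time in the nuclear panel, while the mitochondrial lines cross, with ZT9 peaks of 10.8% at 2 months and 12.1% at 12 months.

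Motifs of factors known for mitochondrial genes occurred in a larger share of the nuclear members' promoters than of all promoters, without a test. Windows of 250 bases before to 50 after the start site (RefSeq, GRCm38.p6) were matched for 62 of the 76 genes by symbol. The NRF1 motif GCGCATGC, read on both strands, occurred in 10 of 62 (16.1%) against 3.05% of 27025 genes. The YY1 motif AAGATGGCG occurred in 7 (11.3% against 1.64%), the ETS motif CCGGAAGT in 5 (8.065% against 4.31%) and the ERR motif TCAAGGTCA in 2 (3.23% against 0.466%). Of 2 forms of the Egr-1 motif, GCGTGGGCG occurred in 0 members (0.707% of all) and GCGGGGGCG in 1, Atp5g2 (1.61% against 3.31%). Median GC content was 57.7% in the member windows and 52.7% in all. These are matches of letters, not sites, and the background was not matched for GC content or for expression in liver. The windows below show the NRF1 motif, in capitals, of 2 subunits whose counts differed between ages (Sdhb and Ndufa6) and of the abundant Cox6a1, and the ERR motif of Atp5g3, each in the direction of its gene.
Sdhb, chr4:140961205-140961236, plus strand: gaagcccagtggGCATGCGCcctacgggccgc
Ndufa6, chr15:82354355-82354386, minus strand: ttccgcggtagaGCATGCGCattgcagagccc
Cox6a1, chr5:115349101-115349132, minus strand: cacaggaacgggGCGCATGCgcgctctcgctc
Atp5g3, chr2:73911358-73911390, minus strand: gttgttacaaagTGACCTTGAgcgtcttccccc
The first and second lines hold the motif on the reverse strand, so it reads GCATGCGC there, and the Atp5g3 line does so too. The palindrome GCGCATGCGC holds the NRF1 motif on both strands, as in Cox6a1.

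At 6 months the nuclear subunits were lower than at 2 months. In the edgeR quasi-likelihood fit with ZT and age, 25 of 76 nuclear members passed an adjusted p of 0.05 (Benjamini-Hochberg over 13361 genes), all of them lower, against 6.47% of all genes called lower. The median log2 difference was -0.20 over the nuclear members and 0.02 over all genes, and 72 of 76 were negative. Complex II had all 4 subunits called, complex I 11 of 36, complex III 3 of 8, complex V 6 of 17 and complex IV 1 of 11. In such bulk samples fewer cells of a type and less RNA per cell cannot be told apart.

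Uqcrc1, a core subunit of complex III, ranged from 227 through a median of 267 to 316 CPM at 2 months and from 163 through 203 to 219 at 6 months. The groups did not overlap, one of 9 nuclear members of which this held. How many of all genes did not overlap was not counted. Uqcrc1 had a log2 difference of -0.47 (SE 0.08, adjusted p = 0.00122). Sdhb, the iron-sulfur subunit of complex II, ranged from 289 (median 363) to 410 at 2 months and from 181 (median 254) to 298 at 6 months, lower at 6 of 6 times although the ranges overlapped (-0.53, SE 0.10, adjusted p = 0.00321). Its flavoprotein partner Sdha did not overlap, with 369 to 455 at 2 months and 282 to 355 at 6 months (-0.39, adjusted p = 0.00653). Both are also enzymes of the tricarboxylic acid cycle.

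In complex I, Ndufs1, which carries iron-sulfur clusters, ranged from 128 (median 144) to 149 CPM at 2 months and from 80.9 (median 102) to 117 at 6 months, without overlap (-0.48, SE 0.10, adjusted p = 0.0035). Ndufs3 (-0.40, adjusted p = 0.00169) and the NADH-binding Ndufv1 (-0.31, adjusted p = 0.0113) were lower by similar amounts, as was Ndufs7 (-0.28, adjusted p = 0.0152). Cox5a of complex IV read 98.9 to 144 at 2 months and 80.8 to 107 at 6 months (-0.38, adjusted p = 0.0028), with overlapping ranges, and Cox5b had -0.31 but an adjusted p of 0.0672. The catalytic pair of the ATP synthase followed, Atp5a1 at -0.45 (adjusted p = 0.00382) and Atp5b at -0.38 (adjusted p = 0.00528), with Atp5c1 of the central stalk at -0.41 and the Rieske subunit Uqcrfs1 of complex III at -0.32. In all, 30 nuclear members were lower at 6 of 6 times and none was higher at 6 of 6. The same was not counted over all genes, so these counts have no background. Among nuclear members past the test, the largest difference was that of Sdhb, within its error of the -0.48 of Ndufs1.

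**Figure D2:**
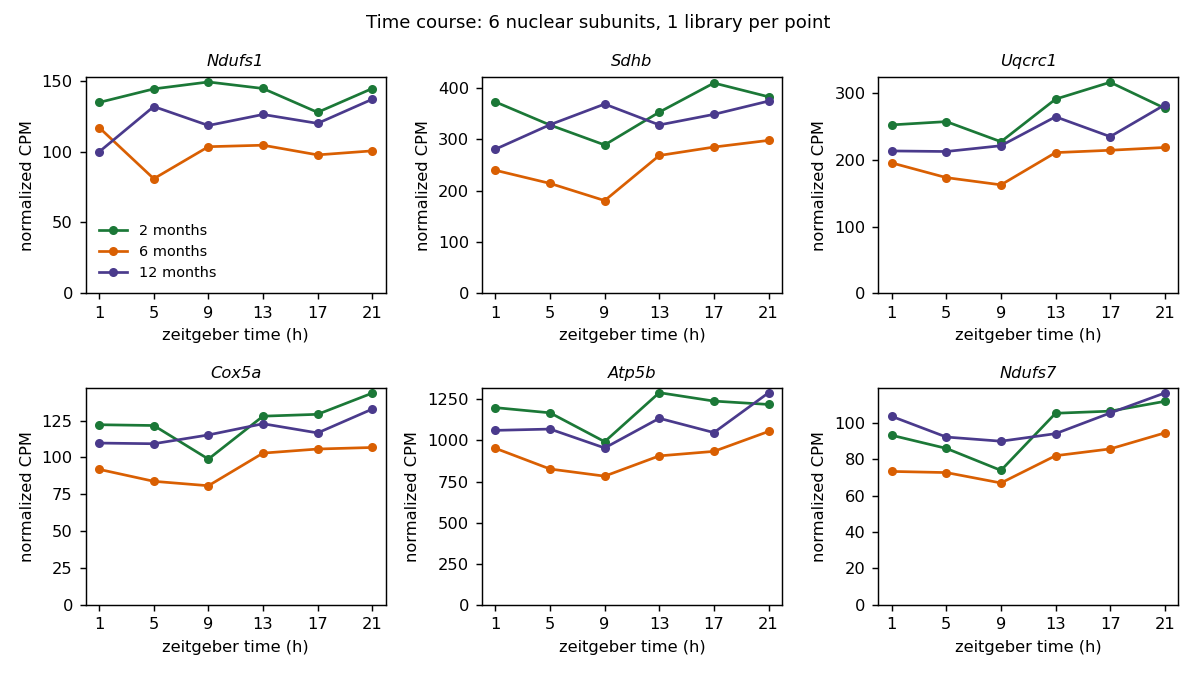
Normalized CPM (axis from 0) of Ndufs1, Sdhb, Uqcrc1, Cox5a, Atp5b and Ndufs7 against zeitgeber time, 1 line per age and 1 library per point. In all 6 panels the 6-month point is below the 2-month point at each of the 6 times, while 12-month medians are 116 CPM for Cox5a and 339 for Sdhb.

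Of the 13 mitochondrial genes, 9 were negative and 3 passed as lower at 6 months, mt-Nd5 (-0.43, SE 0.12, adjusted p = 0.023), mt-Nd6 (-0.39, adjusted p = 0.039) and mt-Nd4l (-1.66, SE 0.49, adjusted p = 0.0331), all of complex I. mt-Nd5 ranged from 6252 (median 7256) to 10294 CPM at 2 months and from 4258 (median 5747) to 6706 at 6 months, lower at 6 of 6 times with overlapping ranges. mt-Nd4l varied widely, from 44.2 to 329 at 2 months and 24.4 to 68.1 at 6 months, lower at 5 of 6 times. The median of the 13 was -0.09, with mt-Co1 at -0.09 (adjusted p = 0.765) and mt-Cytb at -0.25 (adjusted p = 0.305). The difference between the genomes was not tested.

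Other mitochondrial genes were counted in lists of related genes. In the tricarboxylic acid cycle 6 of 13 were lower at 6 months, among them Idh3b (-0.50) and Suclg1 (-0.53), and cytochrome c1, Cyc1, was lower by a log2 difference of -0.35 (adjusted p = 0.00652). Of 44 assembly factors 4 were lower, and of 77 mitochondrial ribosomal proteins 3 were lower and 1 higher. Of 30 regulators 3 were lower, Polg2 (an accessory subunit of the mitochondrial DNA polymerase, -0.79), Lrpprc (which stabilizes mitochondrial mRNAs, -0.34) and Fastkd1 (-0.29). Ppargc1a had -0.53 (adjusted p = 0.0927) and Esrra -0.32 (adjusted p = 0.0612), and Tfam had 0.05 (adjusted p = 0.676). Of 84 cytosolic ribosomal proteins 1 was higher and none lower, with a median of 0.13.

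Other cell types also moved at 6 months. The summed neutrophil markers had a median of 50.2 CPM (20.3 to 135) at 6 months against 2.90 (1.88 to 5.11) at 2 and 6.57 (4.01 to 10.6) at 12 months, with Ly6g itself never above 0.503. Macrophage markers had medians of 250, 299 and 209, and 3 of 6 were called higher at 6 months. The hepatocyte markers summed to 59857 to 110223 (median 81216) at 6 months, 94610 to 110946 at 2 and 102231 to 137312 at 12 months, 8 of 8 were negative at 6 against 2 months and 1 was called. Erythroid markers summed to medians of 1410 CPM at 2, 2749 at 6 and 1559 at 12 months, with 5 of 5 positive at 6 against 2 months and 1 called higher. Of cholangiocyte markers 2 of 3 tested were called higher, of endothelial markers 1 of 4, with all positive, and of stellate cell markers 1 of 5 was called lower. Their part in the result was not tested. Without ZT5 the nuclear count was 16, and it was 13 without the 3 libraries with the most outlying mitochondrial share (ZT9 at 2 and 12 months and ZT5 at 6 months) and 12 without the ZT term. For the mitochondrial genes it was 1 without ZT1, ZT5 or ZT13 and 0 without ZT21.

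At 12 months the nuclear subunits stood higher than at 6 months. All 76 differences were positive, with a median of 0.24 against -0.02 over all genes, and 27 passed, all higher, where 8.13% of all genes were called higher. These were 13 of complex I, 2 of II, 4 of III, 2 of IV and 6 of V, and 25 nuclear members were higher at 6 of 6 times. The latter was not counted over all genes. This comparison and the one before share the 6-month libraries. Of the members lower at 6 months, Sdhb was 0.47 higher at 12 than at 6 months (SE 0.10, adjusted p = 0.00622), Uqcrc1 0.28 (adjusted p = 0.0216), Cox5a 0.31 (adjusted p = 0.00834), Atp5b 0.27 (adjusted p = 0.0343) and Ndufs7 0.35 (adjusted p = 0.00334). Ndufs1 (0.28, adjusted p = 0.0562), Sdha (0.23, adjusted p = 0.0733) and Atp5a1 (0.24, adjusted p = 0.0748) did not pass.

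Among accessory subunits of complex I, Ndufa6 ranged from 193 (median 256) to 306 CPM at 6 months and from 298 (median 395) to 427 at 12 months (0.60, SE 0.12, adjusted p = 0.00349). Ndufb8 ranged from 43.5 to 81.7 and from 73.8 to 94.3 (0.51, adjusted p = 0.00265), and Ndufb10 was 0.44 higher (adjusted p = 0.00335). Of these, Ndufa6 and Ndufb8 were higher at 6 of 6 times with overlapping ranges. Cox7a1, the heart and muscle form of a complex IV subunit, ranged from 0.216 (median 0.344) to 0.818 at 6 months and from 1.17 (median 1.37) to 1.62 at 12 months without overlap (1.62, SE 0.30, adjusted p = 0.00179). Its count over all 18 libraries was 214, and the summed muscle markers were at most 0.260 CPM at 12 months. Of the mitochondrial genes only mt-Atp8 passed (0.67, adjusted p = 0.0457), from 2.71 to 4.03 at 6 months and 4.21 to 6.83 CPM at 12 months, without overlap.

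Of the other lists, 11 of 77 mitochondrial ribosomal proteins, 3 of 44 assembly factors and 3 of 13 genes of the tricarboxylic acid cycle (Cs, Idh3b and Suclg1) were higher at 12 than at 6 months, none lower. Of 84 cytosolic ribosomal proteins 17 were higher and none lower, with 78 positive and a median of 0.25, near the 0.24 of the nuclear members. Polg2 was higher by 0.83 and Slirp, a partner of Lrpprc, by 1.21. Neutrophil markers (2 of 2 tested), 5 of 6 macrophage and 2 of 4 endothelial markers were lower, 4 of 8 hepatocyte markers were higher, and of 5 stellate cell markers 3 were higher and 1 lower. T and B cell markers summed to 11.3 to 17.4 CPM at 6 months and 40.7 to 292 at 12 months, with 1 of 5 tested called higher. Among them Ighm reached 279 CPM, while the T cell genes Cd3e and Cd3g were at most 0.636 and 1.84 in any library. The 1 adipocyte marker tested, Cidec, was also higher. Adipoq, Lep and Ucp1 were at most 1.43, 0.136 and 0 CPM in any library, so the call rests on 1 gene. The part of these cell types was not tested. The count of 27 fell to 14 without ZT5 or ZT21, 15 without ZT9 or without the filter on low counts, 11 without the ZT term and 8 without the 3 libraries named above, and it rose to 51 with library totals as the only scaling, where the median of all genes was 0.06. The mt-Atp8 call was lost without ZT1, ZT5, ZT9 or ZT13.

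Between 12 and 2 months little differed. Of the nuclear members 2 passed, both higher, where 11.9% of all genes were called. These were Cox7a1 (1.39, SE 0.29, adjusted p = 0.00544; 0.395 to 0.682 CPM at 2 months and 1.17 to 1.62 at 12 months) and Ndufa6 (0.44, adjusted p = 0.0254). The nuclear median was 0.04, with 43 of 76 positive. Of the mitochondrial genes mt-Nd5 was lower (-0.42, SE 0.12, adjusted p = 0.0267), at 6 of 6 times, and mt-Nd6 had -0.37 (adjusted p = 0.0514). In the lists, 49 of 84 cytosolic ribosomal proteins were higher, with a median of 0.41, while 1 of 77 mitochondrial ones was. In the tricarboxylic acid cycle 3 of 13 genes were lower and none higher, and of 44 assembly factors 3 were higher and 2 lower. T and B cell markers summed to 10.7 to 20.9 CPM at 2 months and 40.7 to 292 at 12 months, with 1 of 5 tested higher. Here too Cd3e and Cd3g were at most 0.636 and 1.84 CPM. Neutrophil (1 of 2 tested) and adipocyte (1 of 1 tested, Cidec) markers were higher, and hepatocyte (2 of 8) and endothelial (1 of 4) markers lower. Stellate cell markers had 2 of 5 higher and 1 lower. The part of these cell types was not tested. Without ZT1, ZT9 or ZT17, 1 nuclear gene passed, and the mt-Nd5 call was lost without ZT1, ZT17 or ZT21.

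**Figure D3:**
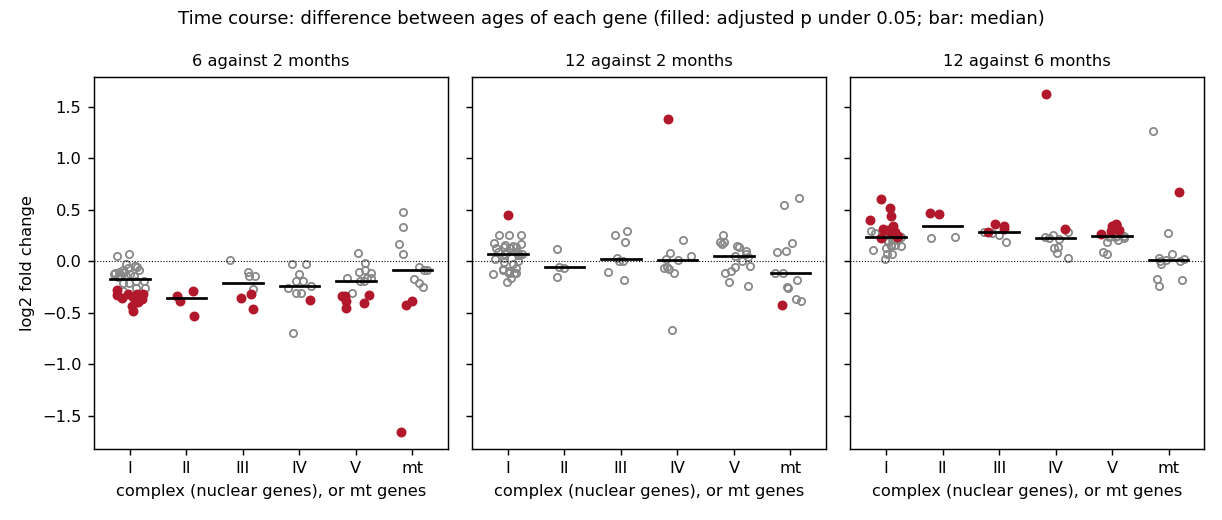
Log2 fold change of each member between ages in the time course, by complex for the nuclear genes and for the mitochondrial (mt) genes, with filled points past an adjusted p of 0.05 and bars at the median. The nuclear points sit mostly below 0 for 6 against 2 months (25 filled, all below), around 0 for 12 against 2 (2 filled) and above 0 for 12 against 6 (27 filled, all above).

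Over the day, 11 of 76 nuclear members fitted a 24-h cosine common to the 3 ages at an adjusted p of 0.05. This was no larger a share than the 16.2% of all genes, and 0 of 13 mitochondrial genes passed. The smallest p among the members was that of Ndufs7, whose log2 amplitude was 0.21 with a peak at ZT19.3 (adjusted p = 0.00441). It read 73.9, 67.0 and 89.95 CPM at ZT9 and 112, 94.5 and 116 at ZT21 at 2, 6 and 12 months. Every age was thus lower at ZT9 than at ZT21. Of the 11, 10 peaked between ZT17.9 and ZT23.7 in the dark phase, with amplitudes of 0.16 to 0.22. How many of all rhythmic genes peaked there was not counted. They were Ndufs7, Ndufa13, Ndufa5, Ndufb6, Ndufb7, Ndufb9, Ndufb10 and Ndufb11 of complex I, Uqcrc1 and Cox5a.

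Atp5s, coupling factor B, was the other, with an amplitude of 0.38 and a peak at ZT6.5 (adjusted p = 0.0217). At ZT9 it read 10.5, 5.17 and 8.995 CPM and at ZT17 3.49, 5.59 and 4.61, so the 6-month values did not follow the other ages. Among all members, tested or not, 74 of 76 nuclear and 5 of 13 mitochondrial peaks lay between ZT12 and ZT24. These fitted peaks share libraries and are given without a test. Leaving out the 2-month libraries gave 0 nuclear and 2 mitochondrial calls, leaving out 6 months gave 5 nuclear and leaving out 12 months 6. DESeq2 called 23 nuclear members and no filter on low counts gave 5.

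**Figure D4:**
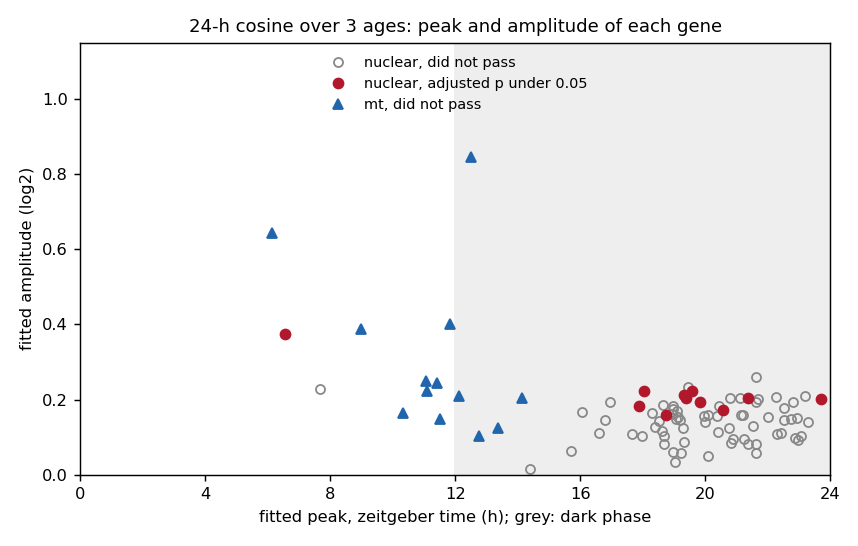
Fitted amplitude (log2) against fitted peak in zeitgeber hours of each member over the 3 ages, with circles for nuclear and triangles for mitochondrial genes, filled red circles past an adjusted p of 0.05 and the dark phase in grey. The 10 filled circles in the grey area have amplitudes of 0.16 to 0.22, and Atp5s stands alone at ZT6.5.

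Within single ages few members passed. At 2 months mt-Nd4l did (amplitude 1.05, peak ZT16.8, adjusted p = 0.0338), where 5.13% of all genes did. At 6 months Atp5k of complex V did (0.53, peak ZT17.0, adjusted p = 0.0264), where 4.85% did. At 12 months mt-Atp6 (0.94, peak ZT8.5, adjusted p = 0.00299) and mt-Nd4l (1.70, peak ZT9.2, adjusted p = 0.00324) did, where 3.63% did.

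At 12 months mt-Atp6 read 404, 1133, 1524, 704, 486 and 441 CPM from ZT1 to ZT21, and mt-Nd4l read 52.7, 88.5, 330.2, 174, 33.5 and 29.9. Both were highest at ZT9, in the library with the highest mitochondrial share, and both share sequence with a nuclear copy. For a change of rhythm, 0 members passed between 6 and 2 months (0.112% of all genes did) and 0 between 12 and 2 months (0.0%). The smallest p-values were those of Atp5k, Ndufa3 and mt-Atp6 for the first (0.00232, 0.00624 and 0.0107, adjusted 0.16, 0.231 and 0.271 in edgeR) and of mt-Nd4l, mt-Atp6 and mt-Atp8 for the second (3.73e-05, 0.000205 and 0.108, adjusted 0.249, 0.575 and 0.999).

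In the genotype cohort the deletion was first looked for in Egr1 itself. The libraries labelled KO had 23 to 125 counts and those labelled WT 21 to 1332. The KO library was lower in 4 of the 6 pairs, but at 2 months in L it had 116 counts against 21 and at 12 months in H 125 against 120. The counts cover the whole gene and the deleted exons were not counted apart. The groups are therefore named by their labels below.

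Between libraries labelled KO and WT, 0 of 76 nuclear and 0 of 13 mitochondrial members passed in the edgeR fit with pairs of equal age and collection, where 1.58% of all genes did. Taken without adjustment, 8 of 13 mitochondrial and 14 of 76 nuclear members had p under 0.05, where 16.0% of all genes had. DESeq2 also called 0, while without the filter on low counts 5 mitochondrial genes passed as lower. All 13 mitochondrial differences were negative, with a median of -0.31 and a range from -0.74 for mt-Co2 to -0.13 for mt-Co3, and the unadjusted p-values were smallest for mt-Co1 (-0.31, SE 0.11, adjusted p = 0.221), mt-Atp6 (-0.64, SE 0.24, adjusted p = 0.223) and mt-Nd1 (-0.35, SE 0.13, adjusted p = 0.229).

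mt-Co1 read 14031 and 20598 CPM in the WT libraries of 2 months (H, L), 29856 and 17736 at 6 months and 24750 and 28454 at 12 months. The KO libraries read 14364 and 13303, 18616 and 15931, and 20317 and 26284. The KO library was lower in 5 of 6 pairs and the ranges overlapped. As a share of counts, the mitochondrial genes had a median of 5.07% in WT and 4.24% in KO, lower in KO in 4 of 6 pairs, and the nuclear genes 1.84% and 1.79%, or 1.91% and 1.73% with TMM scaling.

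The nuclear median was -0.11, with 3 of 76 positive, and depended on scaling. With library totals as the only scaling, which moved the median of all genes from -0.01 to 0.11, 40 of 76 nuclear members were positive with a median of 0.01, while 0 of 13 mitochondrial genes were positive with a median of -0.18. The smallest nuclear p-values were those of Cox7a1 (-0.83, SE 0.25, adjusted p = 0.133), Sdhd of complex II (-0.23, adjusted p = 0.182) and Ndufa5 (-0.25, adjusted p = 0.191). Cox7a1 ranged from 0.936 (median 1.95) to 2.88 CPM in WT and from 0.754 (median 1.05) to 1.67 in KO, lower in 6 of 6 pairs with overlapping ranges.

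The cytosolic ribosomal proteins had a median of -0.18, and 43 of 84 had p under 0.05 without adjustment. Hepatocyte markers summed to 77096 to 100376 CPM in WT and 47783 to 66836 in KO, without overlap, with 3 of 8 called lower, and all 6 macrophage markers were positive with none called. Stellate cell markers had 1 of 5 called higher, T and B cell markers 1 of 5 tested higher, and cholangiocyte markers 1 of 3 tested lower. No endothelial, erythroid, neutrophil or adipocyte marker was called. Their part was not tested. With H pairs alone 2 of 13 mitochondrial and 15 of 76 nuclear differences were positive, and with L pairs alone 0 and 3. Since H and L levels are tied, these values do not show in which collection a difference lies. Without the 2-month L pair the mitochondrial median was -0.20 with 1 of 13 positive. In the test of a genotype difference that varied with age 0 members passed (0.0147% of all genes did), and the smallest p-values were those of mt-Atp6, mt-Nd3 and Ndufb2 (0.0385, 0.0552 and 0.149, each adjusted to 1 in edgeR).

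Across ages in this cohort the mitochondrial genes stood higher at 12 than at 2 months. All 13 were positive with a median of 0.65, and 3 passed, where 12.2% of all genes were called, mt-Nd5 (0.74, SE 0.17, adjusted p = 0.0186), mt-Co1 (0.69, SE 0.18, adjusted p = 0.0323) and mt-Nd6 (0.65, SE 0.18, adjusted p = 0.0358). mt-Nd5 read 2476, 3372, 2539 and 2524 CPM at 2 months (WT H, WT L, KO H, KO L) and 4319, 5289, 3854 and 4792 at 12 months, without overlap. Of the nuclear members 3 passed, Ndufb2 higher (0.73, adjusted p = 0.0174) and Atp5b (-0.31, adjusted p = 0.0248) and Uqcrc1 (-0.37, adjusted p = 0.0302) lower. Between 6 and 2 months 0 members passed (2.87% of all genes did). The nuclear median was -0.01 with 33 of 76 positive, against -0.20 with 4 of 76 in the time course, and it was 0.19 with H libraries alone and -0.19 with L alone. With H and L levels tied, this split does not show in which collection a difference lies. The mitochondrial median was 0.39 with 12 of 13 positive. The smallest p-values were those of Ndufb2, Atp5b and Atp5g1 (0.0048, 0.0053 and 0.0147, adjusted 0.0876, 0.0917 and 0.151 in edgeR). Between 12 and 6 months 0 passed (0.022%), with the smallest p for Cox7a1, Cox6c2 and mt-Atp8 (0.0265, 0.0644 and 0.072, adjusted 0.332, 0.454 and 0.472). Of the hepatocyte markers 3 of 8 were lower and 1 higher at 12 than at 2 months. T and B cell (4 of 5 tested), stellate cell (1 of 5) and adipocyte (1 of 1 tested, Cidec) markers were called higher. Their part was not tested.

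The 12-month calls rested on single libraries. The mitochondrial count of 3 became 0 without the 2-month H library of WT or of KO or without the 12-month L library of KO. It became 1 without the 2-month L library of KO, either 12-month library of WT or the 12-month H library of KO, and 9 and 6 without the 2-month L and the 6-month H library of WT. The nuclear count of 3 became 0 without the 2-month H library of KO, and 5 without the 2-month L or the 12-month L library of WT. It became 1 without the 2-month H or 12-month H library of WT, the 2-month L library of KO or either 12-month library of KO. With H libraries alone 5 mitochondrial and 9 nuclear members passed, and with L alone 0 and 0. As H and L levels are tied and their hours differ between ages, this split cannot show in which collection a difference lies.

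**Figure D5:**
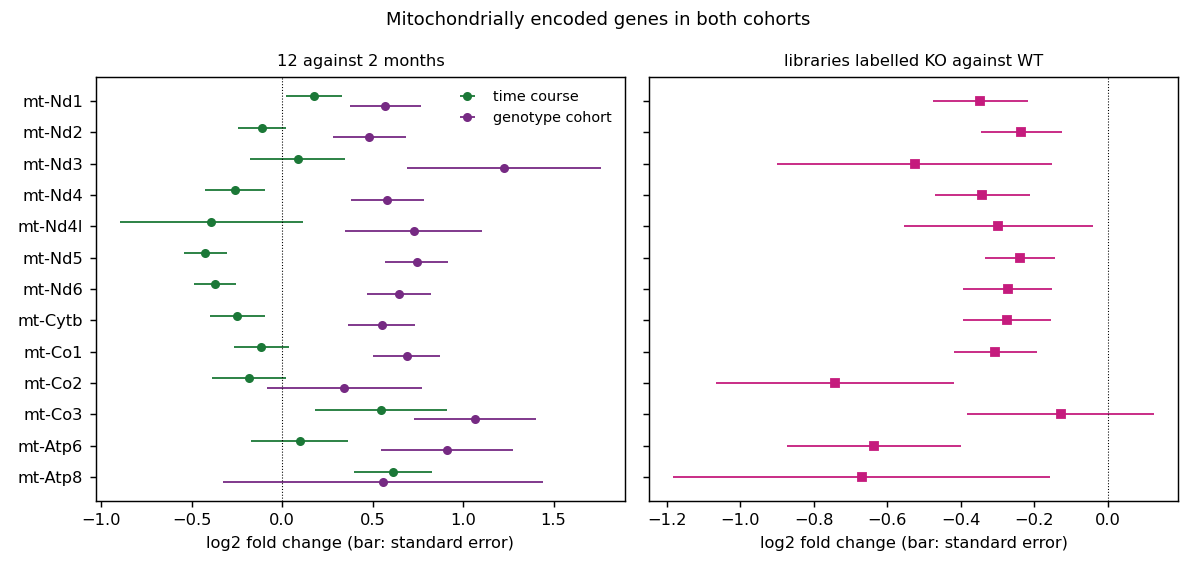
Log2 fold change with standard error of the 13 mitochondrial genes, for 12 against 2 months in the time course and the genotype cohort (left) and for libraries labelled KO against WT (right). For mt-Nd5 the time course has -0.42 and the genotype cohort 0.74, and all 13 KO points lie below 0.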

How the data were processed

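Poly(A)-enriched RNA of mouse liver was sequenced in paired-end reads. Per the labels and the study's methods, the authors used fastp, HISAT2 and featureCounts with mm10, and deposited whole-number counts per gene, by symbol for 18 time-course libraries and by Ensembl ID for 12 genotype libraries. Versions, annotation, strand and multi-mapping settings are not given in the sources used here. The members, gene lists and tests were chosen with earlier results of these data known.

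Counts were analysed in edgeR 4.0.16 (R 4.3.3) with TMM scaling, filterByExpr and quasi-likelihood tests, which left 13361 and 13639 genes, all 89 members among them. Age was fitted with ZT, rhythm as a 24-h cosine with age, genotype with pairs of equal age and collection, and cohort age with genotype and collection. Pairs come from the labels, and deviations within pairs correlated at 0.062 to 0.6. Adjusted p-values are Benjamini-Hochberg over all genes, with 0.05 as threshold. FPKM used summed exon length of GENCODE M21, and promoters came from RefSeq. DESeq2 1.42.0, limma 3.58.1 on log2(CPM + 0.5) and other settings served as alternatives. The fits were run on simulated counts drawn independently for each library. That simulation held no tie between H and L libraries, so it does not bear on the p-values of the genotype cohort. Python 3.11.15 drew the rest.

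Named genes were the 13 mitochondrial genes, 12 core subunits, 4 isoform pairs, the members of smallest p in each comparison (up to 5 a direction past the threshold, otherwise 3), and the members highest and lowest in FPKM or in counts. Genes of the related lists were named as examples, with their adjusted p where they did not pass, and 1 gene is not reported here, and the members called for rhythm in full. Precision is limited by library totals of 13375377 to 21748956 counts and by 1 library per condition.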

Additional observations from a re-analysis of the deposited data

Results flagged for a closer look

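Within groups of 6 libraries, a value stood apart in 8 of the 100 groups looked at, where chance gives about 1 in 20 for independent groups. These were not independent, since the same libraries enter many groups. ZT9 of 12 months stood apart in the mitochondrial share, mt-Co1 and mt-Nd5 alike. The mitochondrial share was far above the other times at ZT9 of 12 months (12.1%) and at ZT9 of 2 months (10.8%), and the nuclear share was far below them at ZT9 of 2 months (1.42%). mt-Co1 stood high at ZT9 of 12 months (51374 CPM) and low at ZT5 of 6 months (20404 CPM). mt-Nd5 was high at ZT9 of 12 months (8626 CPM) and mt-Nd4l at ZT17 of 2 months (329 CPM), and mt-Atp8 read 7.24 CPM in the 12-month H library labelled KO, the highest of its group.

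Both cohorts were compared at the same ages. Among the 89 members, 2 moved one way at every matched time of the time course and the other way in every matched library of the genotype cohort. Those libraries were matched by genotype and H or L label, not by hour. With H and L levels tied, they do not count as separate. For 12 against 2 months, mt-Nd5 had a log2 difference of -0.42 in the time course, lower at 6 of 6 times, and 0.74 in the genotype cohort, higher in 4 of 4 matched libraries. For 12 against 6 months, Uqcrc1 had 0.28 in the time course (adjusted p = 0.0216, edgeR) and -0.15 in the genotype cohort (adjusted p = 0.603). Other members had fitted differences of opposite sign without meeting this, and of the 13 mitochondrial genes 5 were positive for 12 against 2 months in the time course and 13 in the genotype cohort. The differences between the cohorts were not tested, and mouse line and collection time cannot be told apart there.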

How the results depend on the processing

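Calls at 6 against 2 months for the nuclear genes (25) were 12 without the ZT term and 13 without the 3 libraries of outlying mitochondrial share, and 16 to 25 leaving out 1 time. For the mitochondrial genes (3) they were 1 with limma, 0 without the ZT term, 1 without the 3 libraries and 0 to 2 leaving out a time. For 12 against 2 months the nuclear count (2) was 5 with library totals alone and 1 to 2 leaving out a time. The mitochondrial count (1, lower) was 3 in DESeq2, 4 without the count filter, 0 with limma or without the ZT term, 4 without the 3 libraries and 0 to 2 leaving out a time, where the 1 left without ZT13 was higher. For 12 against 6 months the nuclear count (27) was 15 without the filter, 11 without the ZT term, 8 without the 3 libraries, 51 with library totals and 14 to 29 leaving out a time. The mitochondrial count (1, higher) was 2 without the filter and 0 to 1 leaving out a time, and without the 3 libraries it was 1, lower. The causes were not tested.

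The common rhythm called 23 nuclear genes in DESeq2 and 5 without the filter (11), 0 to 6 leaving out an age, and of the mitochondrial genes 1 with library totals and 0 to 2 leaving out an age (0). By age, nuclear calls were 1 (DESeq2) and 6 (exact JTK-type test, unadjusted) at 2 months (0), 13 (DESeq2), 2 (no filter), 0 (library totals) and 14 (JTK-type) at 6 months (1), and 1 in DESeq2, without the filter and by the JTK-type test at 12 months (0). Mitochondrial calls were 0 by the JTK-type test at 2 months (1) and 1 in DESeq2, without the filter and by the JTK-type test at 6 months (0). Of 13361 genes, 1123, 1059 and 844 reached the smallest p that the JTK-type test can give (0.0333) at 2, 6 and 12 months. Genotype calls stayed at 0 in every alternative run but 1, no filter, with 5 mitochondrial genes lower. Dropping the replicate block left 0 nuclear and 0 mitochondrial calls, and the block changed no call. In the genotype cohort the 6 against 2 months nuclear count (0) was 2 in DESeq2, 1 without the H or L term, 4 with H alone and 0 to 1 leaving out a library, and the mitochondrial count (0) 4 with H alone and 0 to 2. For 12 against 2 months the nuclear count (3) was 5 in DESeq2 and without the H or L term, 0 with WT or KO alone, 9 with H, 0 with L and 0 to 5 leaving out a library, and the mitochondrial count (3) was 6 in DESeq2, 0 with WT alone, 5 with H, 0 with L, 7 with library totals and 0 to 9 leaving out a library. With TMM scaling the nuclear share had a median of 1.73% in KO and 1.91% in WT. RLE factors and library sizes without mitochondrial genes moved none of these counts by more than 1.5 times. The settings without the 3 libraries, with library totals alone and with H or L libraries alone were chosen after seeing the data. Because H and L levels are tied, their split does not show in which collection a difference lies.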
